A study of Homo sapiens with 4 samples.

Results

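Forkhead genes other than the FOXA genes were followed in the lists of mRNAs that were differentially expressed after sonodynamic therapy (SDT) in 2 human liver cancer cell lines. The members were the protein-coding genes whose symbol is FOX, a letter from B to S and a digit, with a letter or an L1-like ending allowed, and 46 of 19951 protein-coding genes met this rule. The lines were HepG2, which was sampled before treatment in group A and after targeted nanobubbles with lonidamine (LND) and SDT in group B, and Huh7, sampled before the same treatment in group C and after it in group D. According to the study's methods the bubbles also carried the ultrasound sensitizer HMME. Each group had 1 library, so no value below has a replicate error and no test was made. A gene is called listed when its identifier stood under any Gene Ontology (GO) term of the authors' table for B vs. A or D vs. C. The reads came from bulk cells, where fewer cells of a kind and less RNA per cell cannot be told apart. The tables give neither expression levels, nor depth, nor the direction of a change. A listed gene may therefore have risen or fallen, and its level may have been very low. A gene that is not listed may have missed the authors' threshold, may not have been expressed or may carry no GO annotation, and the tables do not separate these. The markers of the labelled liver cells could not be checked either, because no levels are given.

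Forkhead proteins are transcription factors that bind DNA through a winged-helix domain, the forkhead box, and the letter after FOX names the class of that domain. FOXO proteins are kept in the cytoplasm when insulin and growth factors act through PI3K and AKT, and enter the nucleus when this signal falls or when stress kinases act on them. In the liver they are known for driving genes of glucose production, and in many cells for genes of cell cycle arrest, apoptosis, autophagy and antioxidant defence. Other classes are mostly known from development, such as FOXJ1 in ciliated cells, FOXL2 in the ovary and FOXN1 in the thymus, and FOXM1 drives genes of mitosis.

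The helix that enters the DNA groove is shown first, because it is what the members share, and because FOXO1 was the single FOXO gene absent from both lists. The lines give the 45 coding bases from the start of the conserved helix motif in GENCODE release 29 transcripts, 5′ to 3′, for the 4 FOXO genes and the 3 other genes listed in both cell lines. Capitals mark bases that differ from FOXO3.
FOXO3: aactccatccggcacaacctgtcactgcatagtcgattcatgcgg
FOXO1: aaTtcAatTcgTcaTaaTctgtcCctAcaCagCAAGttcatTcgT
FOXO4: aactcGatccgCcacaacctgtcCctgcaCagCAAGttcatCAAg
FOXO6: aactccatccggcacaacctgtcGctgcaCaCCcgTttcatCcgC
FOXD1: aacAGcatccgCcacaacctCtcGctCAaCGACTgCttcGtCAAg
FOXJ1: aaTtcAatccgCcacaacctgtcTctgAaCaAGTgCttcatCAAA
FOXN3: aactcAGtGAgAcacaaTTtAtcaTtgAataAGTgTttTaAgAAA

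FOXO6 shared 38 of these 45 bases with FOXO3, FOXO4 shared 34 and FOXO1 shared 30. In the encoded protein, 13 of 15 residues were the same as in FOXO3 for FOXO1 and FOXO6, and 12 of 15 for FOXO4. The stretch was found in 39 of the 46 members. The others, with FOXB1 among them, gave no match in this search, which does not show that they lack the helix. Outside the FOXO class, the 35 members with a match shared between 24 and 33 bases with FOXO3, with a median of 29. FOXO1 at 30 therefore lay inside the range of these matched members at the level of bases, although its residues were closer to FOXO3.

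In HepG2 cells (B vs. A), 7 of the 46 forkhead genes were listed, which is 15.2%, beside 23.9% of all protein-coding genes. In Huh7 cells (D vs. C), 10 of 46 were listed, 21.7%, beside a background of 21.9%. In both cell lines, 5 of 46 were listed (10.9%, beside 11.4% of all protein-coding genes), and 12 of 46 were listed in at least 1 comparison, where the background was 34.3%. The share was thus near the background in Huh7 and in both lines together, and lower by count in HepG2, and nothing is read from it about the family as a whole. The 5 shared genes were 71.4% of the listed members in HepG2 and 50% of those in Huh7, while over all protein-coding genes these overlaps were 47.7% and 52.2%.

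**Figure D1:**
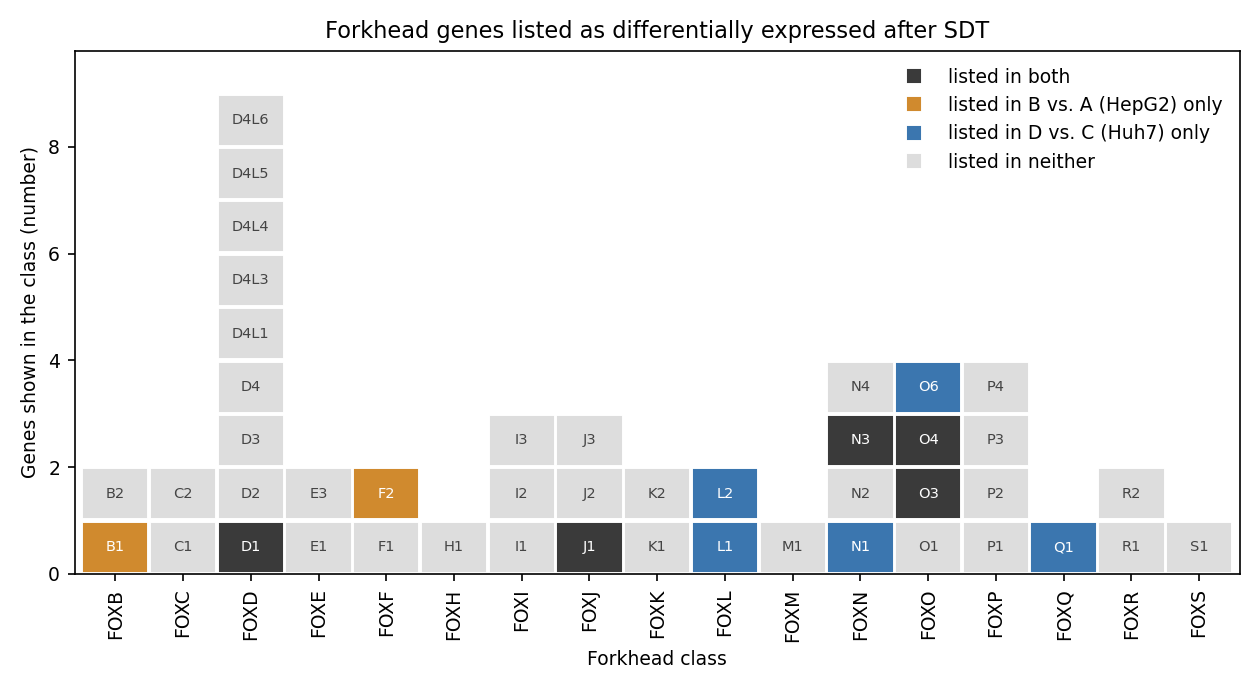
The forkhead genes stacked by class (horizontal axis), with the number of genes shown on the vertical axis. Dark boxes are the 5 genes listed in both comparisons, orange the 2 listed in HepG2 alone, blue the 5 listed in Huh7 alone and grey those listed in neither.

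The 5 genes listed in both cell lines came from 4 classes. FOXO3 and FOXO4 are 2 of the FOXO factors that AKT phosphorylates. FOXD1 is known from the stroma of the developing kidney, FOXJ1 is the main switch for motile cilia, and FOXN3 (also called CHES1) is a repressor tied to the DNA damage checkpoint.

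In HepG2 cells alone, FOXB1 and FOXF2 were listed. FOXB1 is a factor of the developing brain, and FOXF2 acts in the mesenchyme of the gut and palate. In Huh7 cells alone the listed members were FOXL1, FOXL2, FOXN1, FOXO6 and FOXQ1. FOXL1 is a factor of the mesenchyme under the gut lining, and FOXQ1 is known from hair and from epithelial tumours. FOXO6 is the FOXO factor found mostly in brain. Whether the effect of SDT on any of these 7 genes differed between the cell lines was not tested.

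Of 18 classes, 8 had a listed member. By genes listed in at least 1 comparison, FOXO had the most, 3 of 4 genes, followed by FOXL (2 of 2) and FOXN (2 of 4). The background for this count was 34.3% of all protein-coding genes, and the classes are too small to place against it. FOXB, FOXD, FOXF, FOXJ and FOXQ each had 1 listed gene, of 2, 9, 2, 3 and 1 genes respectively.

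The remaining 10 classes, with 19 genes, had no listed member in either comparison. Among them were FOXM1, the factor of mitotic genes, FOXK1 and FOXK2, which act on glycolysis and autophagy genes, and the 4 FOXP genes, of which FOXP3 marks regulatory T cells. FOXC1, FOXC2, FOXE1, FOXE3, FOXH1, FOXI1, FOXI2, FOXI3, FOXR1, FOXR2 and FOXS1 were also absent. In classes that had a listed gene, the absent members were FOXB2, FOXD2, FOXD3, FOXD4 and its 5 near relatives (FOXD4L1, FOXD4L3, FOXD4L4, FOXD4L5 and FOXD4L6), FOXF1, FOXJ2, FOXJ3, FOXN2, FOXN4 and FOXO1.

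Within the FOXO class, 2 of 4 genes were listed in HepG2 and 3 of 4 in Huh7, beside the backgrounds of 23.9% and 21.9%. Without this class, 5 of 42 members (11.9%) were listed in HepG2 and 7 of 42 (16.7%) in Huh7. A class of 4 genes is too small to place against a background.

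The FOXA genes, which open chromatin in liver cells and lie outside the rule, were set beside the members. None of the 3 was listed in HepG2, and FOXA1 and FOXA3 were listed in Huh7. The GO term for sequence-specific DNA binding transcription factor activity gave a wider comparison. Of its 1858 background genes, 437 (23.5%) were listed in HepG2 and 386 (20.8%) in Huh7. Over all 22148 GO background genes these shares were 21.6% and 19.7%. All 7 and all 10 listed members stood under this term.

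**Figure D2:**
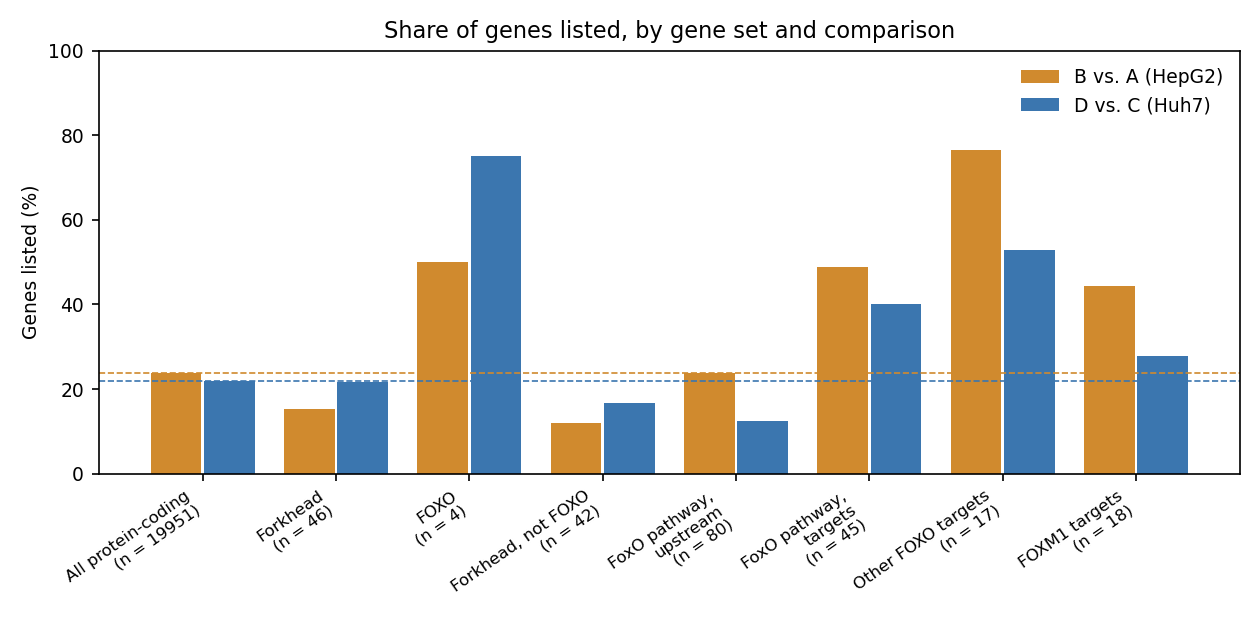
Percent of genes listed (vertical axis) in HepG2 (orange) and Huh7 cells (blue) for 8 sets of genes, with the number of genes under each name. Dashed lines are the shares over all protein-coding genes, 23.9% and 21.9%. The forkhead genes lie at 15.2% and 21.7%, and the FoxO pathway targets at 48.9% and 40%. The pathway and target sets were written with earlier results on these data known.

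Some members lie side by side in the genome. With few members listed, a joint listing of neighbours would be rare at the overall share, so nothing is read from their pattern. On chromosome 6, FOXQ1, FOXF2 and FOXC1 follow each other with no other protein-coding gene between them in GENCODE release 29. FOXQ1 was listed in Huh7 alone, FOXF2 in HepG2 alone, and FOXC1 in neither. On chromosome 16, FOXF1, FOXC2 and FOXL1 lie close together with 1 gene between FOXF1 and FOXC2, and of these 3 genes FOXL1 was listed, in Huh7. FOXE3 and FOXD2, neighbours on chromosome 1, were absent from both lists.

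The longest transcripts of the listed members had a median of 2937 bases (2272 to 7832, n = 12), beside 3163 bases for the 34 members that were not listed and 3157 bases over all protein-coding genes. Genes without introns made up 17 of the 46 members. Of the listed members 2 of 12 were of this kind (FOXL2 and FOXQ1), and of the others 15 of 34. The 6 genes of the FOXD4 group are among these 15. The share over all protein-coding genes was not computed, so nothing is read from the difference.

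How well reads can be assigned differs between the members. For each gene, all stretches of 75 bases in its transcripts were searched, in the same direction, in the transcripts of every other gene. The read length is not given in the sources used here, and 75 bases stands in for it. At least 95% of the stretches were unique in 38 of the 46 members, and in 11 of the 12 listed ones. FOXO3 was the exception with 78.3%. Of its stretches, 13.2% are found in FOXO3B, a copy without introns on chromosome 17 that release 29 holds as a processed pseudogene, and 8.06% in a sense intronic transcript on the same chromosome. The listing of FOXO3 in both cell lines therefore rests on a gene that shares sequence with a copy, and the share of reads from the copy was not tested. The largest sharing was in the FOXD4 group, where the unique share was 6.16% for FOXD4L3, 7.5% for FOXD4L6, 17.9% for FOXD4L4, 45.6% for FOXD4L5, 55.5% for FOXD4 and 60.9% for FOXD4L1. These 6 genes were absent from both lists, and that absence is uncertain for the same reason.

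**Figure D3:**
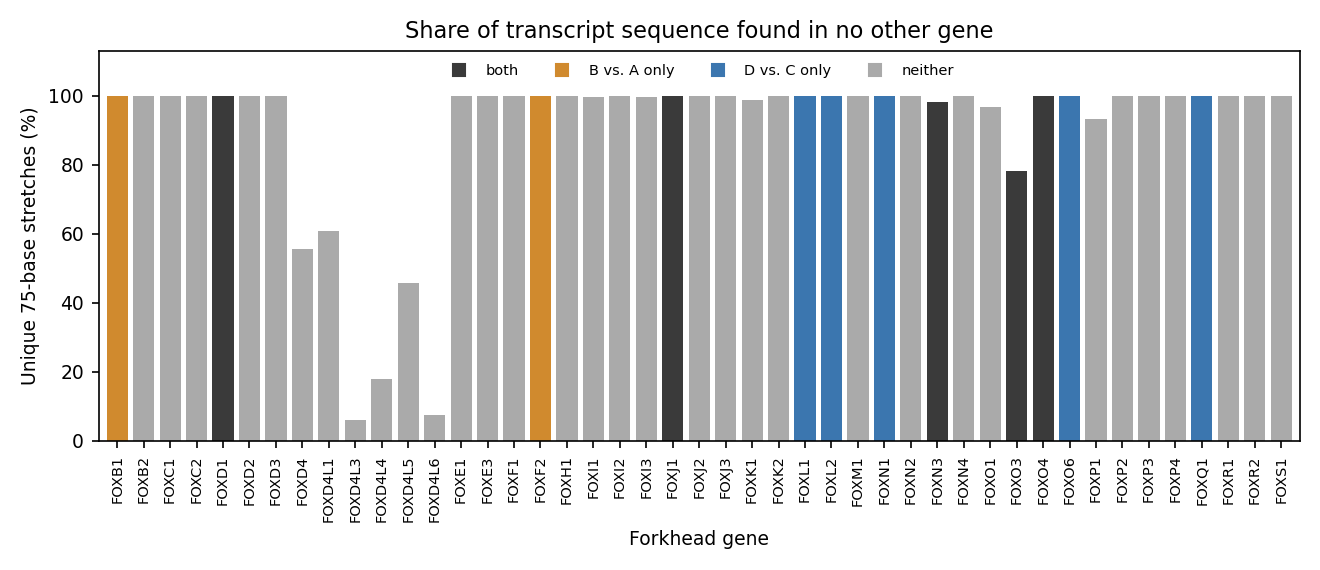
Percent of the 75-base stretches of the forkhead genes' transcripts that occur in no other gene's transcripts (vertical axis), with colours for the list. FOXO3 (78.3%) is the lowest among the listed genes, and the 6 FOXD4 genes lie between 6.16% and 60.9%.

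Once a member is listed, the GO terms it stands under follow from its annotation. The terms below describe the genes and not their response to SDT. FOXO3 was under 419 terms in each table, FOXJ1 under 339, FOXO4 under 257, FOXD1 under 237 and FOXN3 under 127. FOXL2 was under 293 terms of the Huh7 table, FOXO6 under 180, FOXN1 under 171, FOXQ1 under 121 and FOXL1 under 116, and FOXB1 and FOXF2 were under 200 and 177 terms of the HepG2 table. These numbers are a property of the annotation, and the genes listed in both cell lines had the same number in each table. At least 1 listed member was under 818 of 14390 terms in HepG2 and under 880 of 13760 terms in Huh7.

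Of the terms with at least 5 listed members, 118 in HepG2 and 140 in Huh7, those with the fewest background genes were terms of transcription itself. The smallest was DNA-binding activity that raises transcription by RNA polymerase II. It held FOXD1, FOXF2, FOXJ1, FOXO3 and FOXO4 in HepG2, among 146 listed genes of 478 (30.5%). In Huh7 it held FOXD1, FOXJ1, FOXL2, FOXN1, FOXO3 and FOXO4, among 137 of 478 (28.7%). The next terms in HepG2 were sequence-specific DNA binding (24.8% of 1156 genes, 7 members), positive regulation of transcription from RNA polymerase II promoter (26.6% of 1230, 5 members), negative regulation of transcription (25.2% of 1282, 6 members) and negative regulation of RNA metabolic process (24.6% of 1355, 6 members). In Huh7 they were 4 overlapping terms for binding at RNA polymerase II promoters and regulatory regions, with shares between 25.1% and 27.5%, and each held FOXD1, FOXJ1, FOXL2, FOXO3 and FOXQ1.

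Shares of a GO term are best set beside the share of all 22148 background genes of the GO tables that were listed, which was 21.6% in HepG2 and 19.7% in Huh7. Terms were then read for the functions that FOXO factors are known for. Under response to oxidative stress, FOXO3 was the listed forkhead gene in both cell lines, among 123 listed genes of 441 (27.9%) in HepG2 and 100 of 441 (22.7%) in Huh7. Cell cycle arrest held FOXO4, with 73 of 257 genes (28.4%) and 64 of 257 (24.9%). The insulin receptor signaling pathway held FOXO3 and FOXO4 in both and FOXO6 in Huh7, with 38 of 140 genes (27.1%) and 31 of 140 (22.1%).

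Apoptotic process held FOXB1 and FOXO3 in HepG2, with 550 of 2113 genes (26.0%), and FOXL2 and FOXO3 in Huh7, with 480 of 2113 (22.7%). No listed forkhead gene was under gluconeogenesis, autophagy or liver development. Gluconeogenesis itself held 30 listed genes of 90 (33.3%) in HepG2 and 20 of 90 (22.2%) in Huh7, without FOXO1, which is the FOXO factor best known for this process.

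Development terms held the other classes. Kidney development held FOXD1 and FOXJ1 in both cell lines, with 94 listed genes of 242 (38.8%) in HepG2 and 82 (33.9%) in Huh7, the highest shares among the 20 terms chosen. Lung development held FOXJ1, with 55 of 183 genes (30.1%) and 60 (32.8%). FOXB1, a brain factor, was under brain development with FOXJ1 and FOXO3 in HepG2, where 208 of 755 genes were listed (27.5%), and in Huh7 the term held FOXJ1 and FOXO3 with 171 genes (22.6%). FOXF2 (HepG2) and FOXL2 (Huh7) stood under eye development, with 29.8% and 28.1% of 356 genes. T cell differentiation held FOXJ1 in both and FOXN1 in Huh7, with 30.5% and 23.7% of 249 genes. Pattern specification and regionalization held FOXD1 and FOXJ1 in both and FOXB1 in HepG2, and heart development held FOXJ1 in both and FOXL1 in Huh7.

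Cell cycle held FOXN3 and FOXO4 in both cell lines, with 424 of 1881 genes (22.5%) in HepG2 and 355 (18.9%) in Huh7.

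Narrower terms placed the other shared members. The mitotic G2 DNA damage checkpoint held FOXN3 and FOXO4 in both cell lines, with 7 listed genes of 20 (35%) in HepG2 and 10 of 20 (50%) in Huh7. Metanephric nephron development held FOXD1, with 16 of 41 genes (39.0%) and 12 of 41 (29.3%). Glomerular epithelium development held FOXJ1, with 10 of 20 genes (50%) and 4 of 20 (20%). Regulation of response to reactive oxygen species held FOXO3, with 8 of 21 genes (38.1%) and 4 of 21 (19.0%). These terms hold few genes, they were picked after their values had been seen, and no term was tested here.

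Of the members with a single listing, FOXL2 was under sex determination with 6 listed genes of 25 (24%), and FOXN1 under thymic T cell selection with 6 of 21 (28.6%), both in Huh7. FOXQ1 was under hair follicle morphogenesis with 7 of 25 (28.0%). FOXB1 was under hypothalamus development with 8 of 22 (36.4%) in HepG2.

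In the KEGG tables, which group genes by pathway, 3 members appeared. FOXO3 was in 8 pathways in each cell line, FOXO4 in 2 and FOXO6 in 1, and no member outside the FOXO class was in a pathway row. The FoxO signaling pathway held all 3. In HepG2 cells 44 of its 134 background genes were listed (32.8%), and in Huh7 32 of 134 (23.9%), with 22 in common. Over all pathways the median share was 26.1% in each table, so the pathway lay above the median in HepG2, at place 53 of 279, and below it in Huh7, at place 167 of 280.

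FOXO3 is also a member of wider pathways. PI3K-Akt signaling, which passes growth factor signals to AKT, held 115 of 347 genes (33.1%) in HepG2 and 101 (29.1%) in Huh7. AMPK signaling, the response to low energy, held 39 of 124 (31.5%) and 27 (21.8%), and Neurotrophin signaling 32 of 120 (26.7%) and 24 (20%). In Ras signaling, which holds FOXO4 and not FOXO3, the shares were 29.8% and 30.3% of 228 genes. The chemokine, prolactin, endometrial cancer and non-small cell lung cancer pathways lay between 21.4% and 23.8% in both tables. These pathways share genes and are not independent of each other.

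**Figure D4:**
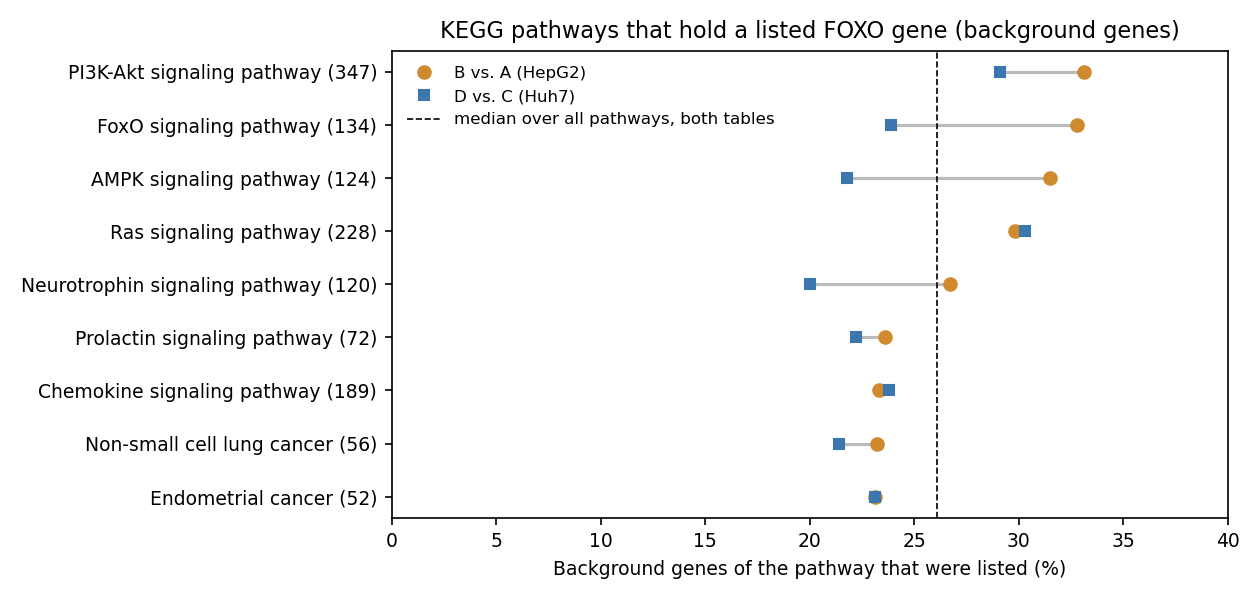
Percent of each KEGG pathway's background genes that were listed (horizontal axis) for the 9 pathways with a listed FOXO gene, in HepG2 (circles) and Huh7 cells (squares). FoxO signaling is at 32.8% and 23.9%, AMPK signaling at 31.5% and 21.8%, and the dashed line is the median of 26.1%.

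To see which part of FoxO signaling was listed, 130 genes of the pathway were sorted by role. The roles covered every gene of the pathway rows except 1. In HepG2 cells, 1 gene (SOD2) stood under 2 identifiers, so 44 identifiers were 43 genes. In Huh7 cells 1 of the 32 identifiers, with the symbol AC011005.1, was not assigned a role, which left 31 genes. By role, 22 of 45 target genes (48.9%) were listed in HepG2 and 18 of 45 (40%) in Huh7, and 14 of 45 (31.1%) in both. Of the 80 genes upstream of the FOXO proteins or acting on them, 19 (23.8%) and 10 (12.5%) were listed, and 6 (7.5%) in both. The backgrounds over all protein-coding genes were 23.9%, 21.9% and 11.4%. By count the share of targets lay above that of upstream genes in both cell lines, and this difference was not tested. The roles were assigned from general knowledge with earlier results on these data known, so the difference is no independent evidence.

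Upstream, the ligands were represented by TGFB2 in both cell lines and by IGF1 in HepG2. INS, EGF, TGFB1 and TGFB3 were not listed. Of the receptors, TGFBR2, which binds TGF-beta, was listed in both, and TGFBR1 in HepG2. The receptors for insulin, IGF1 and EGF (INSR, IGF1R and EGFR) were in neither list. The adaptors IRS1 and IRS2, which link the insulin receptor to PI3K, and SOS2, which activates RAS, were listed in HepG2. No adaptor was listed in Huh7. The ligands, receptors and adaptors are groups too small to place against the backgrounds.

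The kinases that send FOXO out of the nucleus were listed in part. The catalytic PI3K subunits PIK3CD and PIK3CG were in both lists, and the regulatory subunits PIK3R1 and PIK3R2 in that of HepG2 cells. SGK2, which phosphorylates FOXO, was listed in HepG2, and PDPK1, the kinase that activates AKT, in Huh7. AKT1, AKT2, SGK1 and SGK3 were in neither.

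Of 9 stress kinases and of 8 AMPK genes, 1 each was listed in each cell line, groups too small to place against the background. MAPK11, a p38 kinase, was listed in HepG2 and STK4 (also called MST1), which phosphorylates FOXO under oxidative stress, in Huh7. None of the JNK genes MAPK8, MAPK9 and MAPK10 was listed. Of AMPK, the regulatory subunits PRKAG2 (HepG2) and PRKAG3 (Huh7) were listed, but no catalytic subunit was. In the RAS and ERK branch, MAP2K1 was the listed gene of 10, in Huh7, again too few genes to place. The partners SMAD2, SMAD3, SMAD4 and STAT3 were all absent. Of 10 genes that modify FOXO proteins, 3 (30%) were listed in HepG2 and 1 (10%) in Huh7, beside backgrounds of 23.9% and 21.9%. These groups are also too small to place against the background. SKP2, a ubiquitin ligase subunit, was in both lists, and the deacetylase SIRT1 and the ubiquitin ligase MDM2 in that of HepG2 cells.

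Downstream, 11 of 18 cell cycle genes were listed in HepG2 (61.1%) and 8 in Huh7 (44.4%), with 7 in both, beside backgrounds of 23.9%, 21.9% and 11.4%. The limit given above for the role list holds for these shares too. The shared genes were CCND1, which drives entry into S phase, CCNG2, a cyclin of resting cells, the CDK inhibitors CDKN1A (p21), CDKN2B (p15) and CDKN2D (p19), the stress kinase PLK3 and the DNA damage gene GADD45A. CCNB1, CCNB3, PLK1 and GADD45B were added in HepG2 and GADD45G in Huh7. CDKN1B (p27), which is the classical FOXO target of this group, was in neither list.

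Of the apoptosis and autophagy targets, 3 of 9 (33.3%) were listed in each cell line, too few genes to place against the background. GABARAPL1 and GABARAPL2, which coat autophagosomes, were listed in both. BCL2L11, which encodes the death protein BIM, was listed in HepG2 and FASLG, the FAS ligand, in Huh7. TNFSF10, BCL6 and BNIP3 were absent. SOD2, the mitochondrial superoxide dismutase, was listed in HepG2 and CAT in neither. Of the glucose targets PCK2, the mitochondrial form of PEPCK, was in both lists and SLC2A4 in that of Huh7 cells, whereas PCK1, G6PC, G6PC2 and G6PC3 were in neither. FBXO32, a ubiquitin ligase of muscle wasting, was in both. Of 8 immune targets, 5 (62.5%) were listed in HepG2 and 4 (50%) in Huh7, again too few genes to place against the background. KLF2, IL7R and IL6 were in both, S1PR1 and RAG1 in HepG2 and S1PR4 in Huh7.

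**Figure D5:**
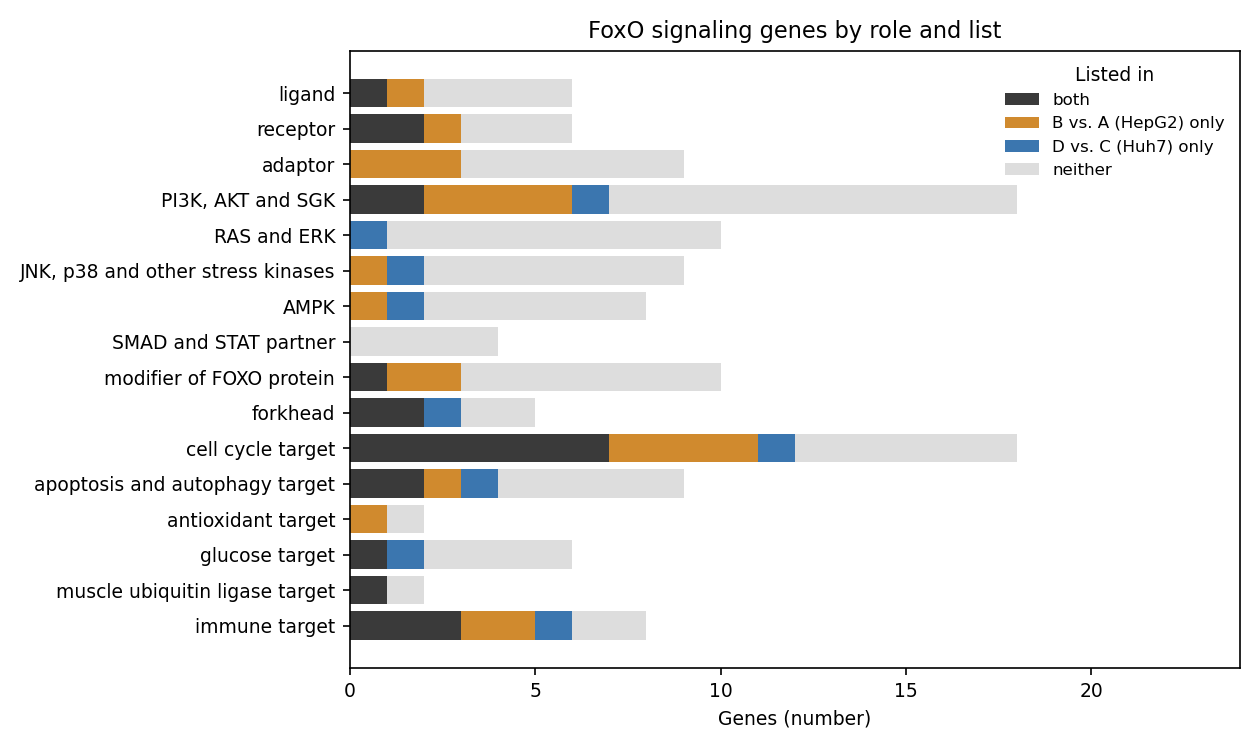
Numbers of FoxO signaling genes (horizontal axis) by role, with dark parts for genes listed in both comparisons, orange for HepG2 alone, blue for Huh7 alone and grey for neither. Cell cycle targets hold 7 genes listed in both, and the SMAD and STAT partners hold none listed.

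A further 17 genes known as FOXO targets but outside the pathway row were also looked up. Of these, 13 (76.5%) were listed in HepG2 and 9 (52.9%) in Huh7, and all 9 were listed in both, beside backgrounds of 23.9%, 21.9% and 11.4%. The list was written from general knowledge with earlier results on these data known and is no independent evidence. They were TXNIP, which restrains glucose uptake, SESN2 and DDIT4, which restrain mTORC1, IGFBP1, a liver-secreted binding protein of IGF, the translation repressor EIF4EBP1, the pseudokinase TRIB1, the receptor ERBB3, and the death genes BBC3 (PUMA) and PMAIP1 (NOXA). As background, several of these are also known as targets of p53 or ATF4. SESN1, SESN3, MXI1 and KLF6 were listed in HepG2 alone. PPARGC1A, TRIM63, CITED2 and PDK4 were in neither list.

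For FOXM1, which was absent from both lists, 18 known targets were set beside it. Of these 8 (44.4%) were listed in HepG2 and 5 (27.8%) in Huh7, and 4 in both, namely CCNA2, CENPE, KIF20A and SKP2. The background shares were again 23.9% and 21.9%, and 11.4% in both. CCNB1, PLK1 and SKP2 were also counted among the FoxO pathway genes above, so these sets overlap. The mitotic genes CCNB1, PLK1, CDC20 and TOP2A were listed in HepG2 alone and AURKA in Huh7 alone. This list was written in the same way, and the direction of each change is not given, so neither list shows whether FOXO or FOXM1 activity changed.

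The sequence that FOXO proteins bind best, TTGTTTAC, was searched on both strands from 250 bases before to 50 bases after the start of each gene, in RefSeq promoters (GRCh38.p14). Promoters were found for 36 of the 46 members and for 14896 protein-coding genes in all. The motif was in 1.07% of all these promoters, in 1.22% of those of genes listed in HepG2 and in 1.44% of those listed in Huh7. Among the members it was in 1 of 36, that of FOXP1, which was not listed, and among 110 pathway genes it was in PIK3CA and STK11, neither of them listed. The shorter core TGTTTAC, which lies inside the first motif, was in 3.81% of all promoters and in 4.44% and 4.36% of those of the listed genes. Of the members it was in FOXO4 and FOXP1. No pathway gene listed in both cell lines except FOXO4 had the core in this window. A further sequence, CAAAACA, was in 5.32% of all promoters and in 6.38% and 5.49% of those of the listed genes. Among pathway genes it was in GABARAPL1, PIK3CD and PIK3CG, listed in both cell lines, and in IRS2, listed in HepG2. It was also in IRS4 and SGK1, which were in neither list. Of the members it was in FOXP1 and FOXQ1.

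Promoter stretches of 2 listed FOXO targets that hold a motif are shown with the motif in capitals, 5′ to 3′ on the gene's strand. They were chosen after the matches had been seen. Among 13 FOXO targets outside the pathway row that had a promoter, TTGTTTAC was in TXNIP and MXI1. Among 110 pathway genes the core was in 7, with BCL2L11 and IGF1 among them. MXI1 and IGF1, both listed in HepG2, are not shown. The 2 stretches shown hold the motif on the opposite strand, so it reads as the reverse complement. That of TXNIP, listed in both cell lines, lies at chr1:145996660-145996739 on the minus strand and has the motif 124 to 117 bases before the start. That of BCL2L11, listed in HepG2, lies at chr2:111120664-111120733 on the plus strand and has the core 223 to 217 bases before the start.
TXNIP: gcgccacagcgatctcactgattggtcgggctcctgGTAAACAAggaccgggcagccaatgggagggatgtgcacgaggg
BCL2L11: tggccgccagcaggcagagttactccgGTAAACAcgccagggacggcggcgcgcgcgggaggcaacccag

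A match of these letters is a description and not a binding site, and targets are often bound outside such a window. With 1 library per group, every share given here describes the lists of these 4 libraries.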

How the data were processed

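Libraries made with a strand-marking kit after removal of ribosomal RNA came from 4 groups of cells, 1 library each. Per the labels and the paper's methods, the authors used HISAT2, Bowtie2 2.2.8, StringTie 1.3.1 and Cuffdiff 2.1.1, computed FPKM values and took mRNAs with adjusted p-values below 0.05 as differentially expressed. The paper's methods name Cuffdiff for these calls and its results name edgeR, and which of them made the lists is not settled here. The genome build, the annotation and the read length are not given in the sources used here. The authors deposited a GO table (GOseq) and a KEGG table (KOBAS) for each comparison, which hold numbers of genes, gene identifiers and the authors' enrichment p-value and corrected p-value. The deposited p-values were not used. The numbers count genes and not reads. The paper's text gives a total of clean reads but not the depth of each library, and no interval was computed.

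For each comparison, the identifiers under all GO terms were joined into a list, which gave 4783 and 4369 genes, the list sizes in the tables. Of these, 15 and 9 were not protein-coding genes of GENCODE release 29, which supplied symbols, gene types, gene order and transcripts. For each comparison the paper reports more differentially expressed mRNA genes than the joined list holds. A gene absent from a list here may therefore still be among the paper's calls. All 46 member symbols were the same in a second table of gene names. Promoters came from RefSeq. Python 3.11.15, pandas 2.3.3 and matplotlib 3.10.9 were used, and the searches were checked on simulated sequences.

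The members, gene lists and GO terms were chosen with earlier results of these data known. By rule, all members and all listed pathway genes were named, as were the genes of the other target lists that were listed in both comparisons. A few genes that the rule would name are not reported here, although the counts include them, and the figures by gene leave 1 member out. GO terms were named from a list of 20, and others, with at least 20 background genes, after their values had been seen. Proteins of the FOXO genes are not shown. Alternatives were biological process terms alone, KEGG genes added, the FOXD4 group left out, FOXA genes or FOXL2NB added, genes with little unique sequence left out, another denominator, a shorter motif, and the role list in place of the pathway row.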

Additional observations from a re-analysis of the deposited data

How the results depend on the processing

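The numbers of listed forkhead genes (7, 10 and 5) stayed within 1.5 times under all 6 alternatives, of which adding FOXL2NB and leaving out the 4 genes with under 50% unique sequence were chosen after seeing the data. FOXL2NB, which lies beside FOXL2 and is not a forkhead protein, would give 8, 11 and 6, and the FOXA genes would give 12 in Huh7. Looking up the role list in place of the pathway row gave 43, 31 and 22 FoxO signaling genes. With the 22148 background genes of the GO tables as the denominator, the share of all genes listed was 21.6% for B vs. A and 19.7% for D vs. C, in place of 23.9% and 21.9%. The shorter core motif raised the share of listed genes with a match to 4.44% and 4.36%. No paired analysis was possible because each group has 1 library and the tables hold no values per sample, and leaving out a library was not possible for the same reason. Depth is unknown.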
